A study of Sus scrofa domesticus with 150 samples.

Results

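The wound edge was set against the wound center 7 days after wounding, in 12 of the 150 samples of the series. The members were the samples labelled day 7. They were 6 from the edge and 6 from the center, and each of 6 wounds gave 1 of each. Wounds 1 and 2 were on pig 1323, wounds 3 and 4 on pig 1324 and wounds 5 and 6 on pig 1325. Odd numbers stand for the wounds labelled E and even numbers for those labelled H. The animals were female domestic pigs of a Yorkshire-mix breed, whose ages the sources used here do not give. Each had circular wounds cut through the full thickness of the back skin. All wounds carried a layer of Telfa Clear and a layer of Tegaderm, and no treatment was given apart from antibiotic ointment at sites already biopsied. The skin cut out on day 0, 1 sample from each of 6 pigs, gives the level before wounding, scaled to its own total. The labels name the location of each punch biopsy but not how much uncut skin, new epidermis or granulation tissue it held. The 2 wounds of a pig share the animal, so the 6 wounds are fewer than 6 independent animals.

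In a healing skin wound, keratinocytes at the margin loosen from their neighbours and crawl under the scab as a tongue of new epidermis, switching on keratins and signals that intact epidermis makes little of. The bed beneath fills with granulation tissue, a loose matrix of fibronectin and young collagen that holds fibroblasts, sprouting capillaries, macrophages and neutrophils.

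Between 15767362 and 20810636 reads per sample were counted on genes, with medians of 17681943 at the edge and 17398351 in the center. Edge sample 2 stood between the locations. On the scale of log2(CPM + 0.5), where CPM is a gene's count in parts per 1000000 of the normalized library, it had a mean correlation across genes of 0.947 with the remaining edge libraries and of 0.925 with the center ones. The other 5 edge samples had mean correlations of 0.965 to 0.973 with the edge and of 0.826 to 0.867 with the center. Basal keratinocyte markers summed to 10980 CPM in that sample, against 18451 to 31344 CPM in the other edge samples and 350 to 572 CPM in the center samples. Hair follicle markers summed to 1053 CPM in edge sample 5 and to at most 123 CPM in every other day 7 sample. Skeletal muscle markers summed to 620 CPM in center sample 4 and to at most 27.5 CPM in every other day 7 sample. All counts were run again without wound 2. The total is given both ways, and a list's count without it where that moved by over 1.5 times or where the wound stood apart. In tissue RNA of this kind, fewer cells of a type and less RNA per cell cannot be told apart.

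Of 14303 genes that passed the filter on low counts, 5471 (38.3%) differed between edge and center, 2869 (20.1%) higher at the edge and 2602 (18.2%) higher in the center. The test was edgeR's quasi-likelihood test with the wound as block, and a gene was called at a Benjamini-Hochberg adjusted p below 0.05. Adjusted p-values come from this test with n = 6 wounds unless another fit or test is named with them. A log2 fold change is edge against center, given with its standard error. A difference of at least 2-fold was more often toward the edge, with 1412 genes (9.87%) higher there and 621 (4.34%) higher in the center, 2033 (14.2%) in all. For 1640 genes (11.5%) all 6 edge samples lay above all 6 center samples, and for 814 (5.69%) all center samples lay above all edge samples. Without wound 2, 5662 genes were called, 2447 of them at least 2-fold. Without both wounds of pig 1324, 2441 were called, 1620 at the edge and 821 in the center, and 40 of 53 gene lists had a count at the edge or in the center that moved by over 1.5 times. Without pig 1325, 2104 genes were called at the edge and 1550 in the center, and 24 lists had such a count. List counts without a pig are given only for elastic fibers, endothelium and HOX genes, so the other list counts may rest on pig 1324. Where a gene named for its day 7 difference lost its call without a pig, that adjusted p is given beside it. EEF1A1, LGALS3 and DPP4, named below for their share or their change between days, lost theirs too. Without pig 1324 their adjusted p was 0.22, 0.211 and 0.0696.

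**Figure D1:**
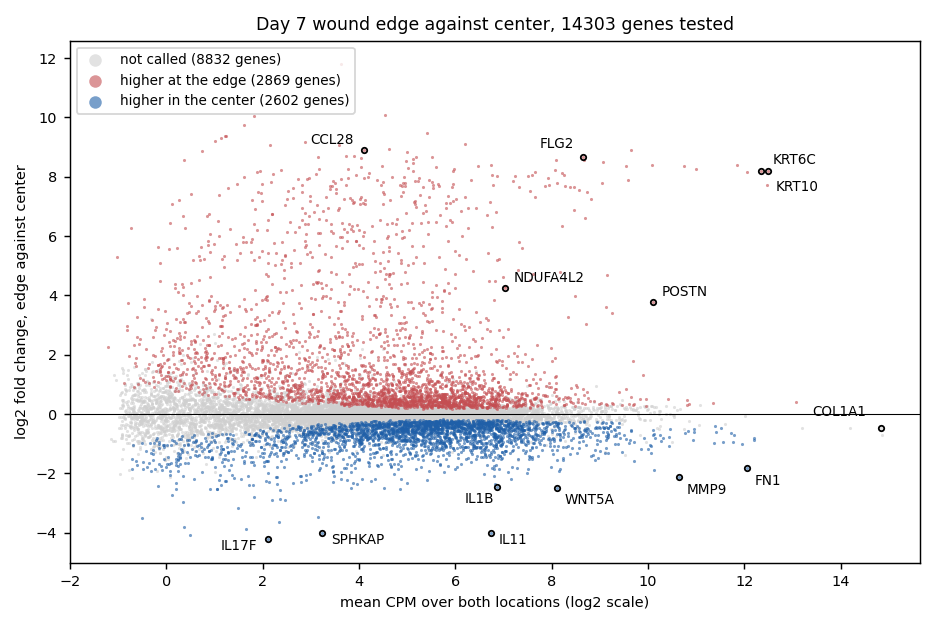
Each point is 1 of the 14303 genes tested, with its mean level over the day 7 samples on the x axis (CPM, log2 scale) and its log2 fold change of edge against center on the y axis. Called genes are red (higher at the edge) and blue (higher in the center). The red points reach much larger fold changes than the blue ones.

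The genes farthest toward the edge were ones that the center nearly lacked. Called genes with at least 5 CPM at the edge and a higher level there in all 6 wounds numbered 2155. The 15 with the largest fold changes had between 654 and 171200 counts over the edge samples and at most 468 over the center samples. They included DSG1, the desmosomal cadherin of the upper epidermis, SCEL, a protein of the cornified layer, ZNF750, a transcription factor of terminal differentiation, and CCL28, a chemokine made by epithelia. CCL28 was between 18.4 and 56 CPM (median 33.1) at the edge and between 0 and 0.193 CPM (median 0.0552) in the center. Its log2 fold change was 8.91 ± 0.34 (adjusted p = 2.45e-06), and the groups did not overlap. TENM2, a cell adhesion receptor, and NEU2, a sialidase, had 764 and 654 counts over the edge samples and 0 over the center samples. Against a floor of 3 counts over the center samples, they were at least 250-fold and at least 214-fold higher at the edge.

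Toward the center, 1918 genes were called, higher there in all 6 wounds and at 5 CPM or more. The 15 with the largest fold changes had between 541 and 48992 counts over the center samples. IL17F, a cytokine of T cells that acts on epithelium, led with a log2 fold change of -4.21 ± 0.40 (adjusted p = 1.76e-04), although edge samples 4 and 5 were above the lowest center sample, sample 3. IL11, a fibroblast cytokine of the interleukin-6 family, was between 149.7 and 237 CPM (median 176) in the center and between 1.06 and 110.1 CPM (median 12.9) at the edge, where sample 2 was the highest. Its groups did not overlap, and its log2 fold change was -4.03 ± 0.77 (adjusted p = 0.00505, and 0.0627 without pig 1324). TNFSF11, the ligand that drives osteoclast formation, had a log2 fold change of -2.88 ± 0.37 (adjusted p = 9.19e-04) and OCSTAMP, a membrane protein of osteoclast and giant cell fusion, one of -2.49 ± 0.47 (adjusted p = 0.00467). The 15 also held SPHKAP, an anchor for protein kinase A, at -4.01 ± 0.51 (adjusted p = 8.59e-04), the dopamine receptor DRD1 at -3.49 ± 0.63 (adjusted p = 0.00416, and 0.0602 without pig 1324), the serotonin receptor HTR2A at -2.50 ± 0.44 (adjusted p = 0.00379, and 0.0504 without pig 1324) and endothelin 3, EDN3, at -2.91 ± 0.20 (adjusted p = 2.63e-05). All center samples were above all edge samples for these 4 genes and for TNFSF11 and OCSTAMP. In unwounded skin their medians were between 0 and 4.88 CPM.

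By share of the counts, without regard to gene length, the locations were led by the same collagens. At the edge COL1A1 took 2.39% ± 0.324 (SD, n = 6) and COL3A1 2.20% ± 0.366, and in the center they took 3.41% ± 0.993 and 3.67% ± 1.12. After the collagens came KRT10 with 1.14% ± 0.328 and KRT15 with 1.13% ± 0.393 at the edge, and SPARC with 1.09% ± 0.233 and EEF1A1 with 0.735% ± 0.0313 in the center. On the authors' FPKM, which is per length, the median of KRT10 was 4910 at the edge and 17.9 in the center, and that of COL1A1 was 3993 at the edge and 5251 in the center.

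Both layers of the epidermis separated the locations in every wound. Of 14 tested markers of basal keratinocytes, the dividing cells on the basement membrane, 13 were higher at the edge and 0 in the center, with a median log2 fold change of 6.69, against -0.003 over all genes tested. Of 24 markers of suprabasal differentiation, 23 were higher at the edge and 0 in the center, with a median of 7.78. For every called gene of both lists the groups did not overlap, and the counts were the same without wound 2. KRT5, the basal keratin, was between 3853 and 9491 CPM (median 8221) at the edge and between 5.8 and 75.6 CPM (median 22.3) in the center (log2 fold change 8.40 ± 0.55, adjusted p = 2.02e-05). Edge sample 2 was its lowest edge sample and center sample 6 its highest center sample. Unwounded skin had a median of 8139 CPM. KRT10, a keratin made as cells leave the basal layer, was between 7820.1 and 16882 CPM (median 10625) at the edge and between 18 and 90.4 CPM (median 38.3) in the center (log2 fold change 8.20 ± 0.50, adjusted p = 1.45e-05), with a day 0 median of 18069 CPM.

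Proteins that hold keratinocytes together and to the basement membrane followed. DSP, the desmosomal plaque protein, had a log2 fold change of 8.35 ± 0.46 (adjusted p = 8.99e-06) and COL17A1, a hemidesmosomal collagen, one of 7.80 ± 0.29 (adjusted p = 2.40e-06). ITGA6 and ITGB4, the integrin pair of the hemidesmosome, differed less, by 1.78 ± 0.12 (adjusted p = 2.72e-05) and 2.34 ± 0.21 (adjusted p = 1.28e-04). The markers that were not called were DST, a large linker protein of the hemidesmosome that other cells also use, with 0.42 ± 0.20 (adjusted p = 0.134), and TGM3, a transglutaminase, with -0.08 ± 0.52 (adjusted p = 0.923). The row matched to TGM3 had between 116 and 1523 CPM (median 761) in the center, unlike the other suprabasal genes, whose highest center value was 91.8 CPM.

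**Figure D2:**
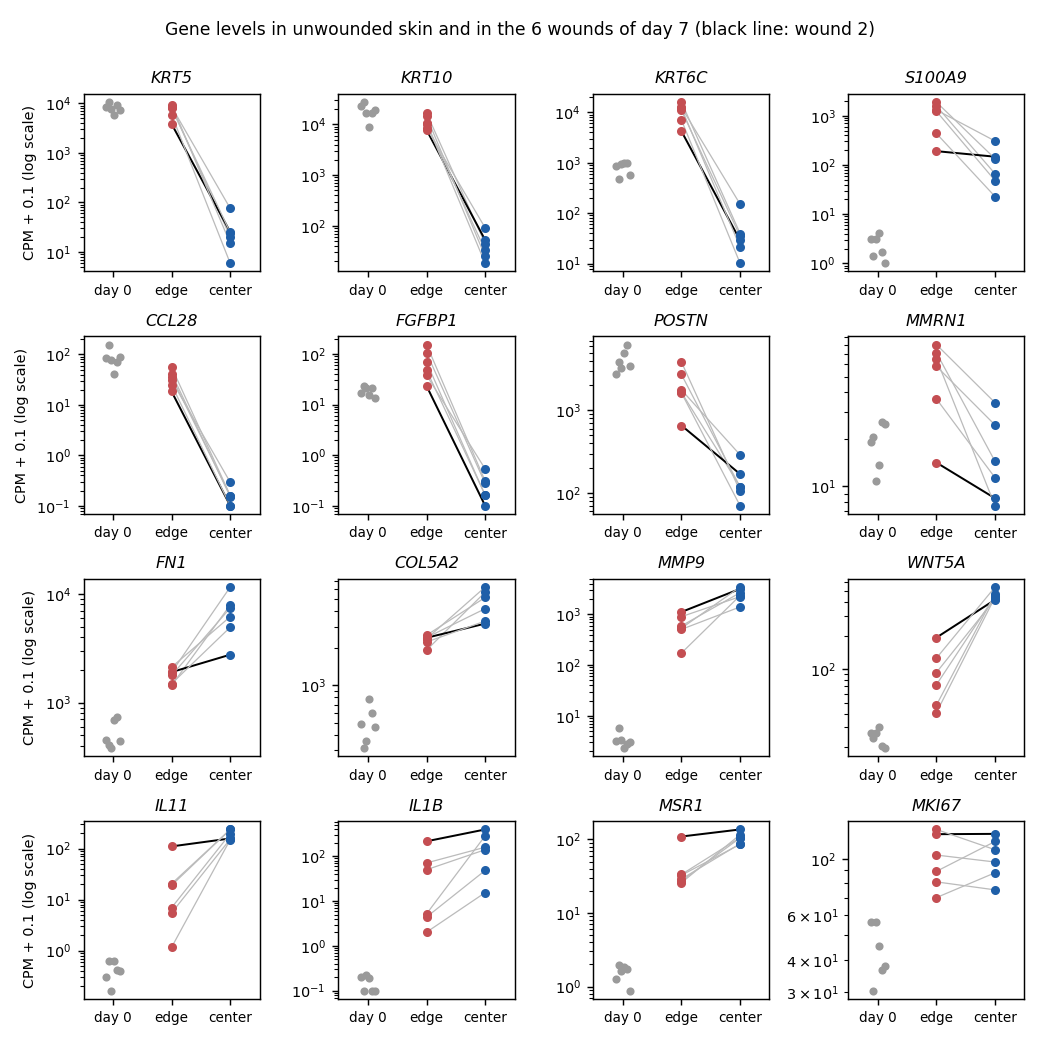
CPM + 0.1 on a log scale for 16 genes in the 6 day 0 skin samples (grey), the 6 edge samples (red) and the 6 center samples (blue) of day 7, with a line joining the samples of a wound and a black line for wound 2. KRT5, KRT10, KRT6C, CCL28, FGFBP1 and POSTN fall from edge to center in every wound and FN1, MMP9, WNT5A, IL11, IL1B and MSR1 climb, while the lines of MKI67 cross.

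The keratins that epidermis makes on injury were far above their unwounded level at the edge. KRT6C was between 4211 and 15909 CPM (median 11488) at the edge, between 10 and 151 CPM (median 31.9) in the center and between 478 and 995 CPM (median 899) on day 0. The 3 groups did not overlap, and the log2 fold change of edge against center was 8.20 ± 0.54 (adjusted p = 2.15e-05). KRT6B followed it with 8.51 ± 0.55 (adjusted p = 2.00e-05). These keratins have near-identical copies, so the split of reads between them is uncertain. FGFBP1, a secreted carrier that frees FGFs from the matrix, was between 23.3 and 153 CPM (median 58.4) at the edge and between 0 and 0.433 CPM (median 0.12) in the center (log2 fold change 8.66 ± 0.40, adjusted p = 5.64e-06), and every edge sample was above the 18.8 CPM median of unwounded skin.

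Antimicrobial proteins stood on the edge side. Of 8 tested, 6 were higher at the edge and 0 in the center, with a median log2 fold change of 3.34. S100A9, a chain of calprotectin, which keratinocytes and neutrophils both make, was between 190.4 and 1893 CPM (median 1271) at the edge, between 22.7 and 306 CPM (median 99.9) in the center and between 0.898 and 4.11 CPM (median 2.29) on day 0. Edge sample 2 was its lowest edge sample and lay within the range of the center. Its log2 fold change was 3.42 ± 0.65 (adjusted p = 0.00491, and 0.0684 without pig 1324), near that of its partner S100A8, 3.26 ± 0.74 (adjusted p = 0.0105, and 0.112 without pig 1324), and of S100A12, 3.02 ± 0.63 (adjusted p = 0.00764, and 0.0823 without pig 1324). The defensin DEFB1, with 6.31 ± 0.61 (adjusted p = 1.93e-04), had no overlap. The S100 proteins also sat among the 11 tested neutrophil markers, of which 4 were higher at the edge and 4 in the center. The center count was 2 without wound 1, 4 or 5.

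Transcription factors that keep cells epithelial were all on the edge side. All 25 tested were called there and 0 in the center, 24 of them at least 2-fold, with a median log2 fold change of 6.08. TP63, which maintains the basal layer, had 7.91 ± 0.49 (adjusted p = 1.64e-05). OVOL1, a brake on the change from epithelium to mesenchyme, had 7.49 ± 0.20 (adjusted p = 1.01e-06), and ESRP1, the splicing regulator of epithelia, had 8.28 ± 0.39 (adjusted p = 5.68e-06). PITX1 was between 7.05 and 103 CPM (median 44) at the edge, between 0.651 and 2.43 CPM (median 1.72) in the center and between 1.2 and 32.5 CPM (median 4.69) on day 0. The edge samples were above all center samples (log2 fold change 4.65 ± 0.38, adjusted p = 7.21e-05), and the day 0 range overlapped that of the edge.

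Most genes of lipid synthesis were higher at the edge. Of 16 enzymes of the skin's lipid barrier, 12 were higher at the edge and 3 in the center, with a median log2 fold change of 3.45. Without wound 3, the center count was 1. The edge genes included ABCA12, which loads lipids into lamellar granules, with 7.83 ± 0.44 (adjusted p = 1.05e-05), and CERS3, a ceramide synthase, with 8.47 ± 0.52 (adjusted p = 1.47e-05). Of 21 genes of cholesterol synthesis and its control, 16 were higher at the edge and 1 in the center, with a median of 0.98. DHCR7, the enzyme of the last step, was between 48.2 and 163 CPM (median 89.7) at the edge and between 5.53 and 11.8 CPM (median 7.65) in the center (log2 fold change 3.58 ± 0.34, adjusted p = 1.69e-04). The exception was INSIG1, which holds back the pathway, with -0.91 ± 0.16 (adjusted p = 0.00402).

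**Figure D3:**
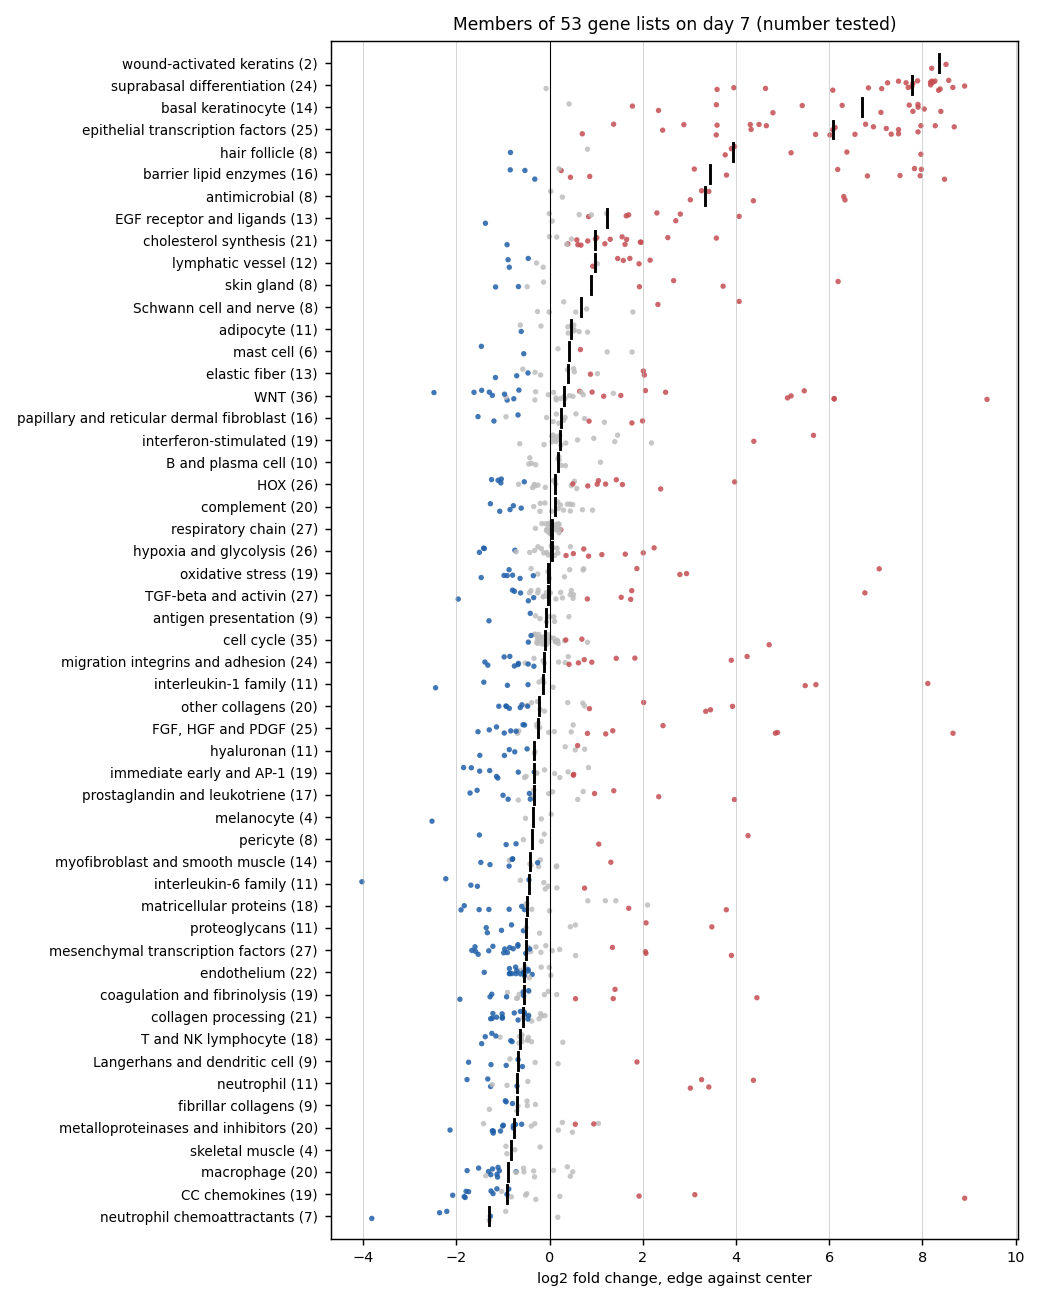
Log2 fold change of edge against center (x axis) for the tested members of 53 gene lists, ordered by median (black bar), with the number tested in brackets. Points are red where called higher at the edge, blue where called higher in the center and grey where not called. The basal and suprabasal lists lie far to the right, the macrophage, CC chemokine and collagen-modifying lists to the left of 0, and the cell cycle and respiratory chain lists on 0.

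Growth factor receptors and ligands divided between the locations. Of 13 genes of the EGF receptor family and its ligands, 7 were higher at the edge and 1 in the center (median log2 fold change 1.22). EGFR, with 2.80 ± 0.34 (adjusted p = 6.82e-04), ERBB2, with 2.71 ± 0.30 (adjusted p = 4.31e-04), and ERBB3, with 4.07 ± 0.30 (adjusted p = 3.64e-05), were at the edge, and ERRFI1, an inhibitor of EGFR signalling, was in the center with -1.38 ± 0.25 (adjusted p = 0.00431). Of 25 genes of the FGF, HGF and PDGF families, 7 were higher at the edge and 8 in the center. Over all genes tested, these shares were 20.1% and 18.2%. Without wound 1, those in the center numbered 5. The edge held receptors of epithelium, FGFR3 with 4.84 ± 0.24 (adjusted p = 6.89e-06), MET with 2.43 ± 0.14 (adjusted p = 1.25e-05) and MST1R with 4.89 ± 0.17 (adjusted p = 1.87e-06). The center held a ligand that fibroblasts send to epithelium, FGF7 with -1.30 ± 0.24 (adjusted p = 0.00424), and the PDGF receptors of fibroblasts and pericytes, PDGFRA with -1.54 ± 0.24 (adjusted p = 0.00214) and PDGFRB with -0.72 ± 0.13 (adjusted p = 0.00379, and 0.0558 without pig 1324).

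WNT genes also split. Of 36 tested, 12 were higher at the edge and 9 in the center, beside 20.1% and 18.2% of all genes tested. The median log2 fold change was 0.32. Their summed level was higher in the center of every wound, with medians of 3082.5 CPM there and 1734.4 CPM at the edge. WNT5A, a ligand of the branch that works without beta-catenin, was between 420 and 547 CPM (median 449) in the center and between 40.5 and 192 CPM (median 82.7) at the edge, with between 19.4 and 30 CPM (median 25.2) on day 0. The 6 center samples were alike, all edge samples were lower, with sample 2 the highest of them, and the log2 fold change was -2.48 ± 0.31 (adjusted p = 7.46e-04). SFRP1, a secreted WNT antagonist, was in the center as well, with -1.46 ± 0.23 (adjusted p = 0.00247). The edge held WNT3 with 5.46 ± 0.28 (adjusted p = 7.33e-06), WNT10A with 6.11 ± 0.24 (adjusted p = 2.55e-06) and the stem cell receptor LGR6 with 5.11 ± 0.46 (adjusted p = 1.20e-04). Of 27 genes of the TGF-beta and activin pathways, 5 were at the edge and 6 in the center, beside 20.1% and 18.2% of all genes tested. BMP7, with 6.77 ± 0.30 (adjusted p = 4.27e-06), was the farthest toward the edge. The row matched to INHBA, the gene of activin A, was between 153 and 242 CPM (median 218) in the center and between 24.3 and 138 CPM (median 53.1) at the edge, with no overlap (log2 fold change -1.96 ± 0.28, adjusted p = 0.00151). The match rests on a protein description, while the annotation in the deposited table types this row as lncRNA, so its identity is uncertain. FST, an antagonist of activin, lay at the edge with 1.76 ± 0.35 (adjusted p = 0.00597).

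FN1, which encodes fibronectin, was between 2758 and 11574 CPM (median 6807) in the center and between 1436 and 2113 CPM (median 1838) at the edge, and its day 0 range was between 379 and 744 CPM (median 445). Center sample 2 was the lowest of its group and still above every edge sample (log2 fold change -1.83 ± 0.27, adjusted p = 0.00181). SPP1, which encodes osteopontin, a matrix protein that macrophages also secrete, was between 511 and 2775 CPM (median 1784) in the center and between 68.4 and 1460.1 CPM (median 466) at the edge, where sample 2 reached the center's range (log2 fold change -1.90 ± 0.26, adjusted p = 0.00114). CCN4, with -1.51 ± 0.21 (adjusted p = 0.00134), and THBS1, which encodes thrombospondin 1, with -1.30 ± 0.15 (adjusted p = 5.73e-04), were lower at the edge too. Without the wound as block the adjusted p of THBS1 was 0.0884. Of 18 matricellular genes, 7 were higher in the center and 2 at the edge, with a median log2 fold change of -0.49. The edge count was 1 without wound 1, 3 or 4.

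Among the main fibrillar collagens, COL1A1 had -0.48 ± 0.24 (adjusted p = 0.159), COL1A2 -0.48 ± 0.23 (adjusted p = 0.126) and COL3A1 -0.70 ± 0.25 (adjusted p = 0.0552), and none of the 3 passed. COL3A1 did pass without the wound as block (adjusted p = 0.017), without TMM scaling (0.0426), without the filter (0.0398), with DESeq2 (0.00485) and with wounds summed per pig (0.0422), and COL1A2 passed with DESeq2 (0.0483). Of 9 fibrillar collagens, 3 were higher in the center and 0 at the edge. In the center were 5 of 9 without the block and 6 of 11 with DESeq2. The 3 called with the block were chains of type V collagen, which sets the width of new fibrils. COL5A2 was between 3171 and 6279 CPM (median 4678) in the center and between 1932 and 2552 CPM (median 2411) at the edge, without overlap (log2 fold change -0.95 ± 0.18, adjusted p = 0.00479, and 0.0571 without pig 1324). Enzymes that modify and cross-link collagen were on the center side for 14 of 21, and 0 were at the edge, with a median log2 fold change of -0.57. The 4 at the head of the list were P4HA3, a prolyl hydroxylase, with -1.27 ± 0.21 (adjusted p = 0.00273), LOXL1, a lysyl oxidase, with -1.23 ± 0.20 (adjusted p = 0.00247), PLOD2, a lysyl hydroxylase, with -1.22 ± 0.18 (adjusted p = 0.00176), and BMP1, which trims procollagen, with -1.14 ± 0.17 (adjusted p = 0.00196). Of 20 other collagens, 7 were in the center, among them COL12A1 with -1.09 ± 0.18 (adjusted p = 0.0029), and 5 at the edge, among them COL4A5 with 3.45 ± 0.41 (adjusted p = 5.84e-04) and COL4A6 with 3.92 ± 0.36 (adjusted p = 1.42e-04), the paired chains of epithelial basement membranes.

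Epidermal markers differed between the same samples. The basal and suprabasal lists had summed medians of 26795 and 35523 CPM at the edge and of 465 and 869 CPM in the center, where the row matched to TGM3, a suprabasal list member, alone had a median of 761 CPM. Their part in the center-side differences was not tested. Without TMM normalization, 5214 genes were called, 2813 at the edge and 2401 in the center.

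Of 20 metalloproteinases and inhibitors, 11 were higher in the center and 2 at the edge, with a median log2 fold change of -0.75. The edge count was 1 without wound 1, 3 or 6. MMP9, a gelatinase of macrophages, neutrophils and keratinocytes, was between 1407 and 3472 CPM (median 2517) in the center, between 173 and 1117 CPM (median 564) at the edge and between 2.19 and 5.77 CPM (median 3.04) on day 0, with no overlap between the groups. Its log2 fold change was -2.14 ± 0.34 (adjusted p = 0.00226), and those of MMP2 and MMP19 were -1.01 ± 0.20 (adjusted p = 0.0058, and 0.0733 without pig 1324) and -1.21 ± 0.18 (adjusted p = 0.00182). TIMP1, an inhibitor of these enzymes, was between 359.8 and 1025 CPM (median 565) in the center and between 99.9 and 1248 CPM (median 205) at the edge, where sample 2 was above all other day 7 samples (log2 fold change -1.23 ± 0.31, adjusted p = 0.0172). Its adjusted p was 0.0549 without wound 3, 0.0571 without wound 4, 0.15 without pig 1324, 0.0676 without pig 1325 and 0.103 with wounds summed per pig. Without the wound as block it was 0.31. Of 14 myofibroblast and smooth muscle genes, 6 were in the center, 1 at the edge and 7 not called. Those in the center were led by the tropomyosins TPM2 with -1.48 ± 0.20 (adjusted p = 0.00106) and TPM1 with -1.28 ± 0.19 (adjusted p = 0.00185), and ACTA2, the marker of myofibroblasts, had -0.42 ± 0.17 (adjusted p = 0.0876, and 0.0259 with wounds summed per pig). The 1 at the edge was MYH11, the myosin heavy chain of smooth muscle, with 1.31 ± 0.43 (adjusted p = 0.0426). Its adjusted p was 0.0684 without wound 1, 0.098 without wound 3, 0.0894 without wound 4, 0.0772 without wound 5 and 0.194 without pig 1324.

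Lists of dermal cells and fibers had called genes on both sides. Of 8 pericyte genes, 2 were at the edge and 3 in the center. Of 13 genes of elastic fibers, 3 were at the edge and 3 in the center, and the edge count was 1 without wound 1, 3 or 5 and 0 without pig 1324. Of 16 genes of papillary and reticular dermal fibroblasts, 3 were at the edge and 3 in the center. Over all genes tested, 20.1% were higher at the edge and 18.2% in the center. POSTN, which encodes periostin, a matricellular protein, was between 656 and 3847 CPM (median 1709) at the edge, between 69.9 and 289 CPM (median 119) in the center and between 2736 and 6257 CPM (median 3656) in unwounded skin. All edge samples were above all center samples, sample 2 being the lowest of them (log2 fold change 3.79 ± 0.47, adjusted p = 7.74e-04). ELN, which encodes elastin, was between 53.5 and 299 CPM (median 162) at the edge and between 8.91 and 67 CPM (median 48.1) in the center, and unwounded skin had a median of 406 CPM (log2 fold change 2.01 ± 0.56, adjusted p = 0.025). Its adjusted p was 0.054 without wound 1, 0.0561 without wound 3, 0.0698 without wound 4, 0.0572 without wound 5 and 0.15 without pig 1324. NDUFA4L2, a mitochondrial protein prominent in pericytes, was between 169.5 and 394 CPM (median 236) at the edge and between 8.39 and 16.3 CPM (median 13.5) in the center, with a day 0 median of 372 CPM (log2 fold change 4.26 ± 0.19, adjusted p = 4.14e-06). NOTCH3, the Notch receptor of mural cells, had 1.06 ± 0.15 (adjusted p = 0.00153), while PDGFRB, another pericyte gene, lay on the center side, as given above.

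The cytokines IL1B and IL6 were higher in the center and varied widely between wounds. IL1B, the main cytokine of the inflammasome, was between 15.4 and 399 CPM (median 150.4) in the center and between 1.92 and 217 CPM (median 27.7) at the edge. In every wound the center was above the edge, but the ranges overlapped. The edge median was above the lowest center sample, and edge sample 2 was above 4 of the center samples. The log2 fold change of IL1B was -2.45 ± 0.66 (adjusted p = 0.0212). Its adjusted p was 0.0642 without wound 1, 0.0589 without wound 3, 0.0657 without pig 1323 and 0.102 without pig 1324. Without the wound as block it was 0.251. IL6 was between 3.52 and 36.7 CPM (median 23.9) in the center and between 0.499 and 17.2 CPM (median 4.25) at the edge (log2 fold change -2.23 ± 0.60, adjusted p = 0.0206). Its adjusted p was 0.0577 without wound 3, 0.0631 without wound 5, 0.105 without pig 1324 and 0.0794 without pig 1325. SOCS3, which the interleukin-6 family induces as a brake, had -1.55 ± 0.36 (adjusted p = 0.0118, and 0.0693 without pig 1324). Of 11 genes of the interleukin-6 family, 5 were higher in the center and 1 at the edge. The edge count was 0 without wound 3, 4 or 5.

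The interleukin-1 family split between the locations. Of 11 tested, 4 were higher in the center and 3 at the edge. The center count was 2 without wound 1, 1 without wound 3 and 2 without wound 4. The edge members were IL36RN, the antagonist of the interleukin-36 receptor, with 8.12 ± 0.48 (adjusted p = 1.27e-05), IL1F10 with 5.71 ± 0.85 (adjusted p = 0.00177) and IL36A with 5.49 ± 0.58 (adjusted p = 3.09e-04), and for all 3 the groups did not overlap. IL36A, a ligand of that receptor, was between 0.699 and 21.5 CPM (median 5.46) at the edge, between 0 and 0.433 CPM (median 0.107) in the center and between 0 and 0.374 CPM (median 0.0936) on day 0.

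CC chemokines were mostly on the center side. Of 19 CC chemokines and receptors, 10 were higher in the center and 3 at the edge, with a median log2 fold change of -0.92. CCL2, which draws monocytes, was between 72 and 641 CPM (median 152) in the center and between 27.8 and 177 CPM (median 42.3) at the edge (log2 fold change -1.79 ± 0.23, adjusted p = 8.77e-04). Its ranges overlapped, with wound 2 the highest at both locations. CCR1, a receptor on monocytes and neutrophils, had -1.83 ± 0.35 (adjusted p = 0.00521), and CCR7, which guides dendritic and T cells to lymph nodes, had -1.74 ± 0.26 (adjusted p = 0.00185). Of 7 tested genes of neutrophil recruitment, 4 were in the center and 0 at the edge. Without wound 3, 2 were in the center and 1 at the edge. CXCL8, the main neutrophil chemokine, was not called, with between 213 and 4069 CPM (median 1551) in the center and between 186 and 3352 CPM (median 585) at the edge (log2 fold change -0.94 ± 0.57, adjusted p = 0.224). IL17A, which calls for neutrophils, had -3.82 ± 0.58 (adjusted p = 0.00195), at levels of at most 7.28 CPM.

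Macrophage markers were higher in the center for 10 of 20 and at the edge for 0, with a median log2 fold change of -0.90, and without wound 2 for 11. Their summed level was 2631 to 6428 CPM in the center and 1604 to 4355 CPM at the edge, higher in the center of all 6 wounds. MSR1, a scavenger receptor, was between 85.8 and 137 CPM (median 106) in the center and between 25.7 and 109.6 CPM (median 30.7) at the edge, where sample 2 alone lay within the range of the center (log2 fold change -1.52 ± 0.23, adjusted p = 0.00174). CD14, a receptor for bacterial lipopolysaccharide, had -1.77 ± 0.39 (adjusted p = 0.00962, and 0.0645 without pig 1324) and CSF1R, the receptor for the macrophage growth factor, -1.12 ± 0.17 (adjusted p = 0.00192). Complement and mannose receptor genes of macrophages were not called, C1QA with 0.38 ± 0.27 (adjusted p = 0.3) and MRC1 with 0.08 ± 0.28 (adjusted p = 0.833). Of 18 T and NK lymphocyte markers, 6 were in the center, among them NKG7, a protein of cytotoxic granules, with -1.15 ± 0.17 (adjusted p = 0.00185), and 0 at the edge. Without wound 1, those in the center numbered 3. Langerhans and dendritic cells gave 5 of 9 markers in the center, among them CCL22 with -1.26 ± 0.18 (adjusted p = 0.00156). The 1 at the edge was CD207, which encodes langerin, with 1.87 ± 0.42 (adjusted p = 0.0104, and 0.0587 without pig 1324 and 0.057 without pig 1325). Of 10 B and plasma cell markers, 0 were called.

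**Figure D4:**
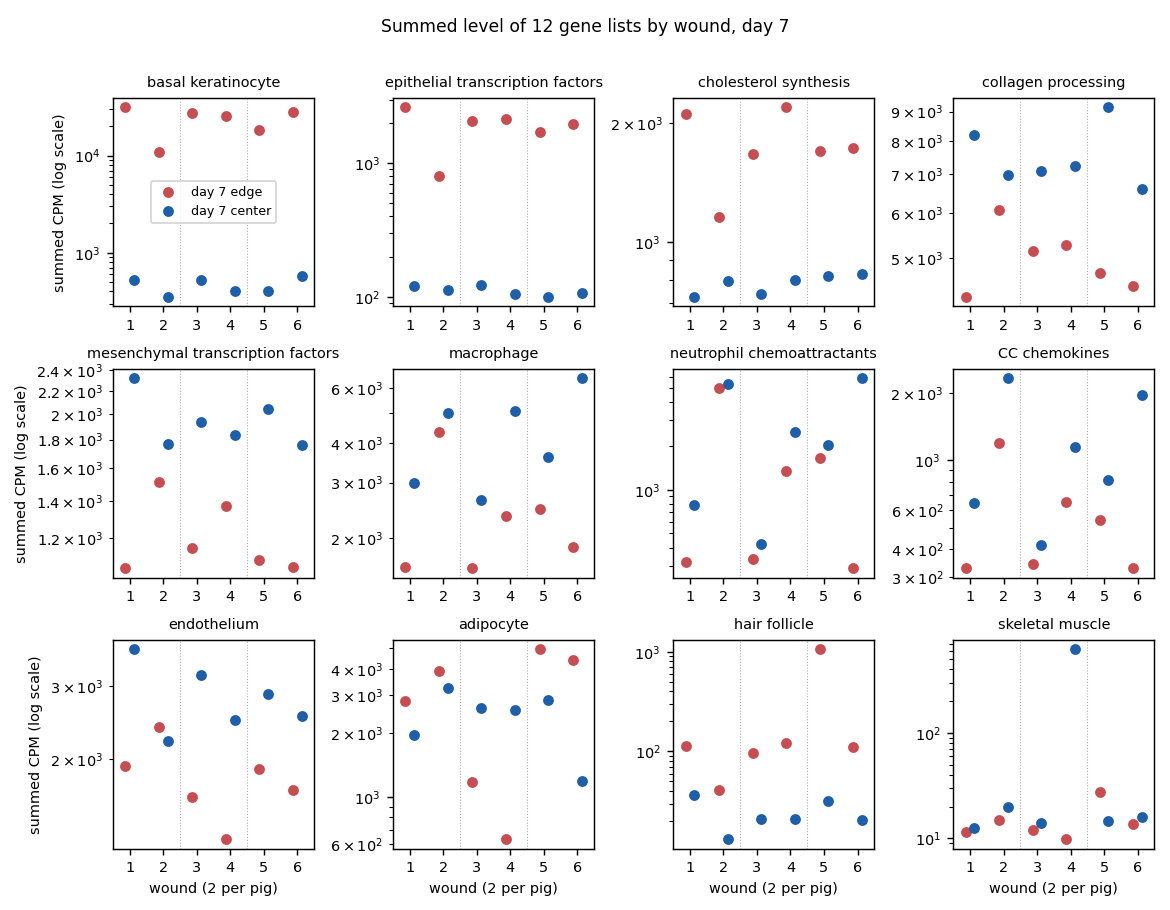
Summed CPM (log scale) of 12 gene lists in each wound, edge in red and center in blue, with dotted lines between pigs. Edge sample 2 sits nearest to the center for the epidermal lists, the leukocyte sums of the centers differ several fold between wounds, and hair follicle and muscle genes are high in 1 sample each.

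Genes of blood vessels were higher in the center, and more lymphatic genes at the edge. Of 22 endothelial genes, 15 were higher in the center and 0 at the edge, but only 1 by at least 2-fold, and the median log2 fold change was -0.55. That 1 was SELE, an adhesion molecule of inflamed endothelium, with -1.40 ± 0.29 (adjusted p = 0.00732, and 0.0824 without pig 1324) on the more abundant of the 2 rows that carry this name. PECAM1, the general marker, was between 482 and 761 CPM (median 593) in the center and between 258 and 504 CPM (median 375) at the edge (log2 fold change -0.70 ± 0.16, adjusted p = 0.00985, and 0.112 without pig 1324). The summed endothelial level was higher in the center in 5 of 6 wounds, the exception being wound 2. The number called depended on single wounds. It was 8 without wound 1, 18 without wound 2, 8 without wound 3 and 7 without wound 4, and 0 without both wounds of pig 1324. Of 12 lymphatic genes, 6 were at the edge and 3 in the center, beside 20.1% and 18.2% of all genes tested. The groups overlapped for every gene of this list. Its summed level was higher at the edge in 4 of 6 wounds, with medians of 414 CPM at the edge and 363 CPM in the center. PROX1, the factor that specifies lymphatic endothelium, had 1.58 ± 0.26 (adjusted p = 0.00272), and MMRN1 was between 14.1 and 80.4 CPM (median 61.8) at the edge and between 7.42 and 34.1 CPM (median 12.8) in the center, with edge sample 2 inside the range of the center (log2 fold change 1.72 ± 0.29, adjusted p = 0.00326). CCL21, which lymphatic endothelium secretes, had 1.92 ± 0.31 (adjusted p = 0.00244). LYVE1, which macrophages share, was on the center side with -0.87 ± 0.21 (adjusted p = 0.0147, and 0.0661 without pig 1324 and 0.0569 with wounds summed per pig).

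Transcription factors of connective tissue were mostly higher in the center. Of 27 tested, 15 were higher in the center and 4 at the edge, with a median log2 fold change of -0.51. The edge count was 2 without wound 4. TBX2, a repressor of cell-cycle inhibitors, was between 62.5 and 139 CPM (median 110.2) in the center and between 23.9 and 67.9 CPM (median 28.5) at the edge, where sample 2 reached the center's range (log2 fold change -1.67 ± 0.26, adjusted p = 0.00205). SNAI1, which represses epithelial cadherin, had -1.60 ± 0.31 (adjusted p = 0.0058), and RUNX2, the master regulator of bone, had -1.22 ± 0.13 (adjusted p = 2.94e-04) with no overlap. SOX9, which hair follicles also use, was the farthest toward the edge with 3.90 ± 0.76 (adjusted p = 0.00573). Of 26 HOX genes, 9 were at the edge and 5 in the center, beside 20.1% and 18.2% of all genes tested, and those in the center were 4 HOXD genes and HOXB9 (adjusted p = 0.00606, and 0.0747 without pig 1324 and 0.0563 without pig 1325). The edge count was 5 without wound 1, and 5 and 1 were at the edge and in the center without pig 1324. HOXD4 had -1.04 ± 0.18 (adjusted p = 0.00327) and HOXC4 1.56 ± 0.17 (adjusted p = 3.27e-04), so their signs were opposite.

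Of 19 immediate early and AP-1 genes, 8 were higher in the center and 2 at the edge. The center count was 5 without wound 1 or 5, and the edge count 0 without wound 1, 3 or 4. FOS had -1.50 ± 0.29 (adjusted p = 0.00545) and the orphan receptor NR4A1 -1.85 ± 0.35 (adjusted p = 0.00504). Such genes can answer to the handling of tissue, whose part here was not tested. The median of FOS was 232 CPM in day 0 skin, 75.5 CPM at the edge and 253 CPM in the center. HMOX1, which breaks down heme, was between 445 and 1134 CPM (median 715) in the center and between 184 and 572 CPM (median 222) at the edge (log2 fold change -1.47 ± 0.28, adjusted p = 0.0049, and 0.0604 without pig 1324), and GPX2, the glutathione peroxidase of epithelia, was at the edge with 7.07 ± 0.45 (adjusted p = 1.77e-05). Of 19 genes of oxidative stress defense, 7 were in the center and 4 at the edge, beside 18.2% and 20.1% of all genes tested. Their median log2 fold change was -0.04. PTGS2, the inducible prostaglandin synthase, had -1.56 ± 0.23 (adjusted p = 0.00186), while HPGD, which degrades prostaglandins, had 3.97 ± 0.42 (adjusted p = 3.28e-04).

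Of 26 genes of hypoxia and glycolysis, 8 were higher at the edge and 4 in the center, beside 20.1% and 18.2% of all genes tested, with a median log2 fold change of 0.06. SLC2A1, the glucose transporter of epidermis, was between 221 and 319 CPM (median 286) at the edge and between 45.1 and 95.2 CPM (median 72.3) in the center (log2 fold change 2.01 ± 0.19, adjusted p = 1.61e-04), with EGLN3, the oxygen sensor, at 2.24 ± 0.41 (adjusted p = 0.00417) and PDK1, which turns pyruvate from mitochondria, at 1.12 ± 0.13 (adjusted p = 5.10e-04). In the center were PFKFB3, a switch of glycolysis, with -1.42 ± 0.22 (adjusted p = 0.00219) and SLC16A3, which exports lactate, with -1.51 ± 0.31 (adjusted p = 0.0069, and 0.0598 without pig 1324).

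Several systems gave few calls beside all genes tested, of which 20.1% were higher at the edge and 18.2% in the center. Of 35 cell cycle genes, 3 were higher at the edge and 2 in the center, and MKI67, the proliferation marker, was between 70.3 and 130.2 CPM (median 96.2) at the edge and between 75.4 and 125 CPM (median 103) in the center (log2 fold change -0.04 ± 0.10, adjusted p = 0.769). The farthest was CDKN2B, an inhibitor of the cell cycle, at the edge with 4.71 ± 0.34 (adjusted p = 3.53e-05). The center count of the list was 0 without wound 1, 3 or 4 and 1 without wound 6. Of 27 genes of the respiratory chain, 1 was at the edge and 0 in the center, with a median of 0.06. This count was 0 without any 1 of wounds 1 to 5 and 4 without wound 6. Among 19 interferon-stimulated genes, 2 were at the edge and 0 in the center, OASL with 5.66 ± 0.80 (adjusted p = 0.00142) and the chemokine CXCL11 with 4.38 ± 0.78 (adjusted p = 0.00373). Without wound 6, 6 were at the edge. Of 11 adipocyte genes, 0 were at the edge and 1 in the center, and their summed level ran from 633 to 4939 CPM at the edge and from 1192 to 3236 CPM in the center. The center count was 0 without wound 1, 3, 4 or 6.

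Of 8 tested Schwann cell and nerve genes, 2 were at the edge and 0 in the center, beside 20.1% and 18.2% of all genes tested. The 2 were ERBB3, given above, and the neurotrophin receptor NGFR with 2.32 ± 0.44 (adjusted p = 0.00503). Of this list, DESeq2 tested 14 and called 7, all at the edge. The list summed to between 254 and 334 CPM at the edge and to between 151 and 274 CPM in the center, and it was higher at the edge in all 6 wounds. Melanocyte and skeletal muscle lists had 4 tested genes each, with 1 and 0 called. The row matched to MLANA, a melanocyte gene, was between 1.03 and 5.59 CPM (median 3.43) in the center, between 0.175 and 0.714 CPM (median 0.459) at the edge and 0 in all day 0 samples (log2 fold change -2.52 ± 0.62, adjusted p = 0.0146). Its adjusted p was 0.0521 without wound 5 and 0.0889 without pig 1325. Unwounded skin holds melanocytes, so the identity of this row is uncertain.

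Days 5 and 11 were sampled in the same 3 pigs, 6 wounds each, and place day 7 in time. On those days alone, 6096 and 7020 genes were called between edge and center. Whether the difference itself changed was tested by the interaction of location and day. Against day 5, 0 of 15163 genes (0%) passed in edgeR's quasi-likelihood test, with 1617 below an unadjusted p of 0.05 and 96 called by DESeq2. Against day 11, 4 of 15140 (0.0264%) passed, with 1410 below an unadjusted p of 0.05 and 169 called by DESeq2. All 4 were lower at the edge on day 11 than on day 7 relative to the center. They were NOS2, the inducible nitric oxide synthase, with a log2 fold change of -0.34 on day 7 and -2.44 on day 11 (difference 2.07 ± 0.27, adjusted p = 0.0175), ACP5, a phosphatase of osteoclasts and macrophages, with -0.20 and -1.86 (difference 1.62 ± 0.21, adjusted p = 0.0175), SLC43A3, a nucleobase transporter, with -0.13 and -1.15 (difference 0.99 ± 0.11, adjusted p = 0.00959) and KIAA0040 with 0.22 and -0.69 (difference 0.88 ± 0.12, adjusted p = 0.0175).

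The list medians place these days side by side. For days 5, 7 and 11 in turn, the median log2 fold change of basal keratinocyte genes was 5.90, 6.69 and 5.61, and that of macrophage genes -0.86, -0.90 and -1.69. Fibrillar collagens had -1.06, -0.70 and -0.25, and antimicrobial genes 1.50, 3.34 and 4.09. Of the tested members of these lists, NOS2, in the macrophage list, was the only one that passed the interaction test, against day 11. The genes nearest to the threshold against day 5 were LGALS3, which encodes galectin 3, with 1.91 on day 5 and 0.43 on day 7 (difference -1.49 ± 0.22, adjusted p = 0.07), the gene CPM, which encodes a membrane carboxypeptidase, with 0.67 and -0.75 (difference -1.43 ± 0.19, adjusted p = 0.0519), and DPP4, a peptidase of fibroblasts and T cells, with 1.11 and -0.68 (difference -1.80 ± 0.27, adjusted p = 0.07). MMP1, the interstitial collagenase, had 0.49 on day 7 and -3.71 on day 11 (difference 4.17 ± 0.71, adjusted p = 0.0839) and did not pass.

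**Figure D5:**
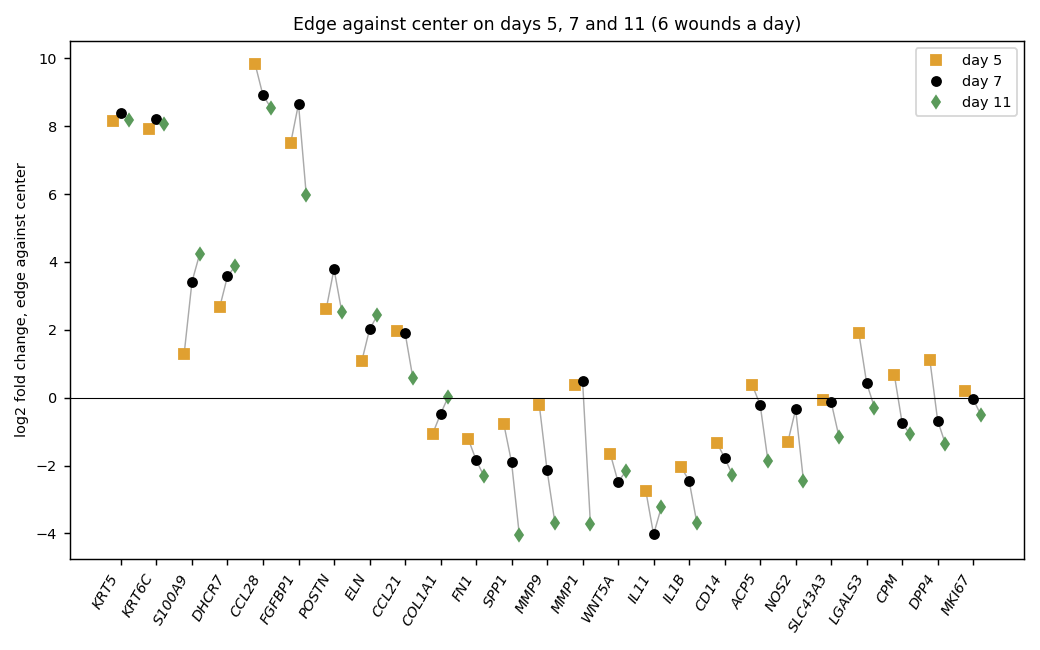
Log2 fold change of edge against center for 25 genes on day 5 (squares), day 7 (circles) and day 11 (diamonds), each fitted on the 6 wounds of that day. KRT5, KRT6C, CCL28 and FGFBP1 stay above 5 on all days, while MMP9, MMP1, SPP1, NOS2 and ACP5 are lowest on day 11.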

How the data were processed

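RNA from 12 day 7 punch biopsies was poly-A enriched and sequenced as paired-end Illumina reads. The deposited table gave read counts per gene, made by the authors, with contig positions. The deposited FPKM of the authors, computed with gene length, was used only to give levels per length. The aligner and genome build are not given in the sources used here. Of 30461 genes, 12300 carried a name and 9387 more a protein match, and 515 whose name and match disagreed were kept only under their identifiers.

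Counts were fitted with edgeR (4.0.16, R 4.3.3): TMM scaling, filterByExpr with a minimum of 10 counts, a quasi-likelihood test with wound as block, and Benjamini-Hochberg adjustment at 0.05. Edge and center of a wound were paired by the labels (same pig and wound), and the correlations of their deviations from the group means were 0.332, 0.371, 0.299, 0.108, 0.267 and -0.292 for wounds 1 to 6. Interactions of location and day were fitted with days 5 and 11. CPM is per 1000000 of the scaled library, and on day 0 of the plain total. Values at 0 were bounded with 3 counts over the group. Nothing says that biopsies were handled separately, so p-values cover the spread between these samples, and counts cover counting error only.

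Named genes were the 15 called genes with the largest fold changes in each direction (at least 5 CPM, the same direction in all 6 wounds), the leading called and the opposing members of each list, and the 5 genes with the largest shares. Further list members were picked by name with their values in view. The members and lists were chosen with earlier results of these data known. Alternatives were no block, no TMM, no filter, DESeq2 (1.42.0), each wound or pig left out, and wounds summed per pig. Leaving out pigs was added after seeing the data. On simulated day 7 counts of 14303 genes with 200 changed, the test recovered 77.5%, with 5.49% of calls false. DESeq2 recovered 78% of the changed genes there, but 14.8% of its calls were false. The interaction test of edgeR on simulated counts recovered 55.0%, and that of DESeq2 was not simulated. The simulation gave every gene the same spread and had no effect of the pig. Its 200 changed genes were far fewer than the 38.3% called on day 7, so its rates may not hold for these data. A few genes are not reported here.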

Additional observations from a re-analysis of the deposited data

Results flagged for a closer look

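Among 42 groups of 6 day 7 values that were tested for a sample far from the others, 6 held one, where chance gives about 1 in 20. Edge sample 2 had a mean correlation of 0.947 with the other edge samples, which had 0.965 to 0.973. Center sample 6 had one of 0.962 with the other center samples, which had 0.971 to 0.976. Hair follicle genes summed to 1053 CPM in edge sample 5 and to between 41.3 and 123 CPM in the other edge samples. Skin gland genes summed to 455 CPM in edge sample 4 and to between 115 and 141 CPM in the others. Skeletal muscle genes summed to 620 CPM in center sample 4 and to between 12.6 and 19.8 CPM in the others. Genes of papillary and reticular dermal fibroblasts summed to 2618 CPM in center sample 6 and to between 4587 and 5520 CPM in the others. What set these samples apart was not tested.

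Against day 11, the difference between edge and center on day 7 was itself different for 4 genes in the interaction test. The differences in log2 fold change were 0.99 for SLC43A3, 1.62 for ACP5, 2.07 for NOS2 and 0.88 for KIAA0040.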

How the results depend on the processing

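The number of genes that differed on day 7 was 5471, and 3992 to 5662 with 1 wound left out. It was 2441 without pig 1324 (1620 at the edge, 821 in the center), the only alternative that moved it by over 1.5 times, and the cause was not tested. Without the replicate block it was 5356, and with DESeq2 it was 6099. Against day 5, the interaction gave 0 genes, 3 without the replicate block, 3 without TMM, 3 without the filter, 96 with DESeq2, and 0 to 4 with 1 wound left out (4 without wound 2). Against day 11 it gave 4 genes, 0 without the replicate block, 169 with DESeq2, and 1 to 8 with 1 wound left out (1 without wound 4, 8 without wound 6). The replicate block pairs edge and center of a wound. Of 126 named genes called, 98 kept their call under every alternative and 28 lost it under at least 1, 26 of them without pig 1324, 4 with wounds summed per pig and 3 without the replicate block (IL1B, THBS1 and TIMP1), while COL3A1 and SPARC, not called, passed without it, without TMM and with DESeq2. No named value reversed where the main fit or the alternative called the gene. Where neither called it, the direction was not compared. A gene with 0 counts over a group is bounded by 3 counts, and the 3 pigs limit every comparison.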

Other observations

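Within each pig the centers of the wounds labelled E and H differed in inflammatory genes. IL1B was 48.5, 15.4 and 160 CPM in the centers of wounds 1, 3 and 5 and 399, 141 and 288 CPM in those of wounds 2, 4 and 6. Summed neutrophil chemoattractants were 791, 424 and 2028 CPM in the former and 5325, 2487 and 5841 CPM in the latter. The wound labelled H was thus the higher in each of the 3 pigs, and this difference was not tested.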
